A study of Mus musculus with 4 samples.

Results

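Deubiquitinase genes encode the proteases that take ubiquitin, or a relative of it, off other proteins. They were followed here in the called peaks of H3K23pr, the propionylation of lysine 23 of histone H3, in mouse liver with and without RPN11. The members were the autosomal protein-coding genes with symbols Usp or Otud followed by digits alone, together with Otub1, Otub2, Uchl1, Uchl3, Uchl5, Bap1, Cyld, Atxn3, Stambp, Stambpl1, Cops5, Mysm1 and Mpnd. This gave 60 genes of 20665 autosomal protein-coding genes. Proteasome lid subunits were not among them, but Usp14 and Uchl5, whose proteins bind the proteasome reversibly, were.

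The KO library came from liver of male C57BL/6 mice with a hepatocyte-specific RPN11 knockout, and the WT library from male C57BL/6 RPN11 flox/flox liver. RPN11, encoded by Psmd14, is itself a deubiquitinase, and the series concerns fatty liver disease. Each genotype had 1 immunoprecipitate (IP) and 1 input, so genotype and library cannot be told apart and no difference below has a replicate check. The age of the mice, their diet, the number of livers per library and the promoter that drives the Cre were not given in the sources used here. Cells other than hepatocytes keep RPN11 in such a knockout and contribute to whole liver chromatin.

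Ubiquitin is attached to proteins as single units or chains, and deubiquitinases edit or remove it. Members of 4 of the 5 catalytic classes here are cysteine proteases: the large USP class, the OTU class, the UCH class and the Machado-Joseph class (MJD), which Atxn3 represents. The JAMM class is made of zinc metalloproteases, and RPN11 belongs to it. Members act on receptors at endosomes, on signalling complexes, on DNA repair proteins, on histones and on substrates held at the proteasome. In liver such enzymes are studied for their part in lipid storage, inflammation and cholestasis.

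A peak here is a stretch that the authors' caller marked in the IP over its own input, and its height is given as IP fragments over the summit. Over the members, peaks were low in both libraries. KO peaks held 4 to 8 fragments and WT peaks 4 to 11, with a median of 5 in both, as in all autosomal protein-coding genes (5 in both). A peak was counted for a gene when it overlapped the gene or the 2 kb on either side by at least 1 bp. The IP libraries held 15468265 fragments in KO and 13615838 in WT after duplicate filtering, a KO to WT ratio of 1.14, and the caller's IP fragment size was 71 bp in KO and 97 bp in WT. In these lists, 4 of the 5 hepatocyte genes Alb, Apoa1, Ttr, Cps1 and Hnf4a had a KO peak and 3 a WT peak, against 30.5% of all genes in KO and 43.1% in WT. They held 14 KO peaks against 4.03 expected from length and 4 WT peaks against 5.29, and Cps1 alone had 10 KO peaks and 1 WT peak. The peaks check neither the tissue nor the knockout.

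The start regions of 3 members are shown first, because peaks came near these starts without reaching them. Each sequence runs 5′ to 3′ on the gene's own strand, from 250 bases before to 50 after the annotated start (RefSeq, GRCm38.p6, the assembly of mm10), with every CpG in capitals. Usp25, a deubiquitinase of cytokine receptor signalling (chr16:77013819-77014118, plus strand), had peaks on both sides of its start, in KO upstream and in WT downstream. Otud4, an OTU enzyme known for its role in DNA alkylation repair (chr8:79639426-79639725, plus strand), had the WT peak nearest to a member's start. Usp40 (chr1:88008502-88008801, minus strand) had the KO peak nearest to one.
Usp25: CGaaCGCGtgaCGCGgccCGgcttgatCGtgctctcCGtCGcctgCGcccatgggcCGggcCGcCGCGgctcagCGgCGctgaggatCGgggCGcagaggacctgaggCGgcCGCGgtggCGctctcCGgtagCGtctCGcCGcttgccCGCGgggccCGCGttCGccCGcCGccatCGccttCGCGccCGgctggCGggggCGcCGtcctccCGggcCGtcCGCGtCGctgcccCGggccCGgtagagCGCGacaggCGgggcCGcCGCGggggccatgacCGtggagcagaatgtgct
Otud4: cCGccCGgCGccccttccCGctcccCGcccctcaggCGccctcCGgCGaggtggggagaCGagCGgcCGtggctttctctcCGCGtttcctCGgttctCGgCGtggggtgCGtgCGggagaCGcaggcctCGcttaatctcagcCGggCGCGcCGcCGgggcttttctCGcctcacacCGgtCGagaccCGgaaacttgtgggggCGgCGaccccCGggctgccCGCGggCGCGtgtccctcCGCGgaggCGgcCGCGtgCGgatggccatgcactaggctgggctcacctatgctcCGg
Usp40: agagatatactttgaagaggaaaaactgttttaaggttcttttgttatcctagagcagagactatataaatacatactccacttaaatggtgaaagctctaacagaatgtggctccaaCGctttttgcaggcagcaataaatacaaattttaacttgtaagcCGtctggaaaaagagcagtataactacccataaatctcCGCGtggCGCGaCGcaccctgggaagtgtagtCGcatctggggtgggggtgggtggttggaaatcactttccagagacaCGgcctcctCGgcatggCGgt
Usp25 has 54 CpG in these 300 bases, Otud4 43 and Usp40 11. Of the 20085 starts listed for autosomal protein-coding genes, 0.468% hold as many CpG as Usp25, 3.50% as many as Otud4 and 55.9% as many as Usp40. GC content is 79.0% for Usp25, 74.7% for Otud4 and 45.0% for Usp40.

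At the Usp25 start, KO had summits 1786 and 2513 bases upstream with 5 and 7 fragments, and WT had a summit 1477 bases downstream with 4 fragments. At the Otud4 start, the WT summit lay 588 bases downstream with 6 fragments, and no KO peak lay within 2 kb. At the Usp40 start, the KO summit lay 566 bases upstream with 4 fragments, and the nearest WT summit was 25.7 kb away. The promoter table listed 53 starts for 48 of the members. No start of a member had a KO or a WT peak within its 300 bases. Taking 3 as the approximate upper limit of a count of 0, this allows a share of up to about 5.66%, for counting error only. Over all listed starts the share was 0.194% in KO and 0.463% in WT, so 53 starts were too few to show a difference.

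Within 2 kb of a listed start, peaks were found at 2 of 53 starts in KO (3.77%) and at 7 of 53 in WT (13.2%), against 4.24% of all starts in KO and 7.80% in WT. The KO starts were those of Usp25 and Usp40. The WT starts were those of Otud4, Usp7, Usp12, Usp15, Usp25, Usp32 and Usp45. Promoters of the 8 starts with a peak from either library had a median GC content of 75.2%, against 62.3% for the other 45, and a median observed to expected CpG ratio of 0.897, against 0.790. The ranges of that ratio overlapped, at 0.605 to 1.15 with a peak and 0.123 to 1.23 without one. GC content was not separate either, since the Usp40 start, which had a peak, held 45.0%. Starts are not separate genes: among the 45, Stambpl1 gave 4 and Otub2 gave 3, each with a GC content below 62.3%.

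Counted over whole genes, 27 of 60 members had a KO peak (45.0%, exact binomial 95% interval 32.1 to 58.4) and 40 had a WT peak (66.7%, 53.3 to 78.3). Over all autosomal protein-coding genes the shares were 30.5% in KO and 43.1% in WT. Members are longer than most genes, with a median of 41.3 kb against 17.5 kb. When each member was given the share of marked genes among those within 10% of its own length, 26.6 members would carry a KO peak and 36.9 a WT peak. The number of marked members was therefore close to what genes of like length show.

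The number of peaks was higher than length alone gave. Members held 83 KO peaks (exact Poisson 95% interval 66.1 to 103) and 125 WT peaks (104 to 149). At the peak density of all autosomal protein-coding genes, their windows of 3.43 Mb in all would hold 62.2 KO and 81.5 WT peaks. From the mean of genes of like length the numbers would be 62.9 and 85.3. As densities, members had 24.2 KO and 36.4 WT peaks per Mb, against 18.1 in KO and 23.8 in WT over all such genes. The ratio of members to all genes was 1.34 in KO (95% interval 1.06 to 1.66) and 1.53 in WT (1.28 to 1.83). Intervals cover counting error only, and peaks in 1 gene are not independent. Peaks of at least 5 fragments were found in 24 of the 60 members in KO and 33 of the 60 in WT, against 24.1% and 36.0% of all genes. Both member shares were the higher ones, but members are longer and no like-length share was computed for these peaks. With these the KO ratio was 1.30 (0.963 to 1.72) and the WT ratio 1.59 (1.27 to 1.97). Among peaks with a caller q up to 0.05 the KO ratio was 1.39 (0.896 to 2.05) and the WT ratio 0.910 (0.392 to 1.80).

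**Figure D1:**
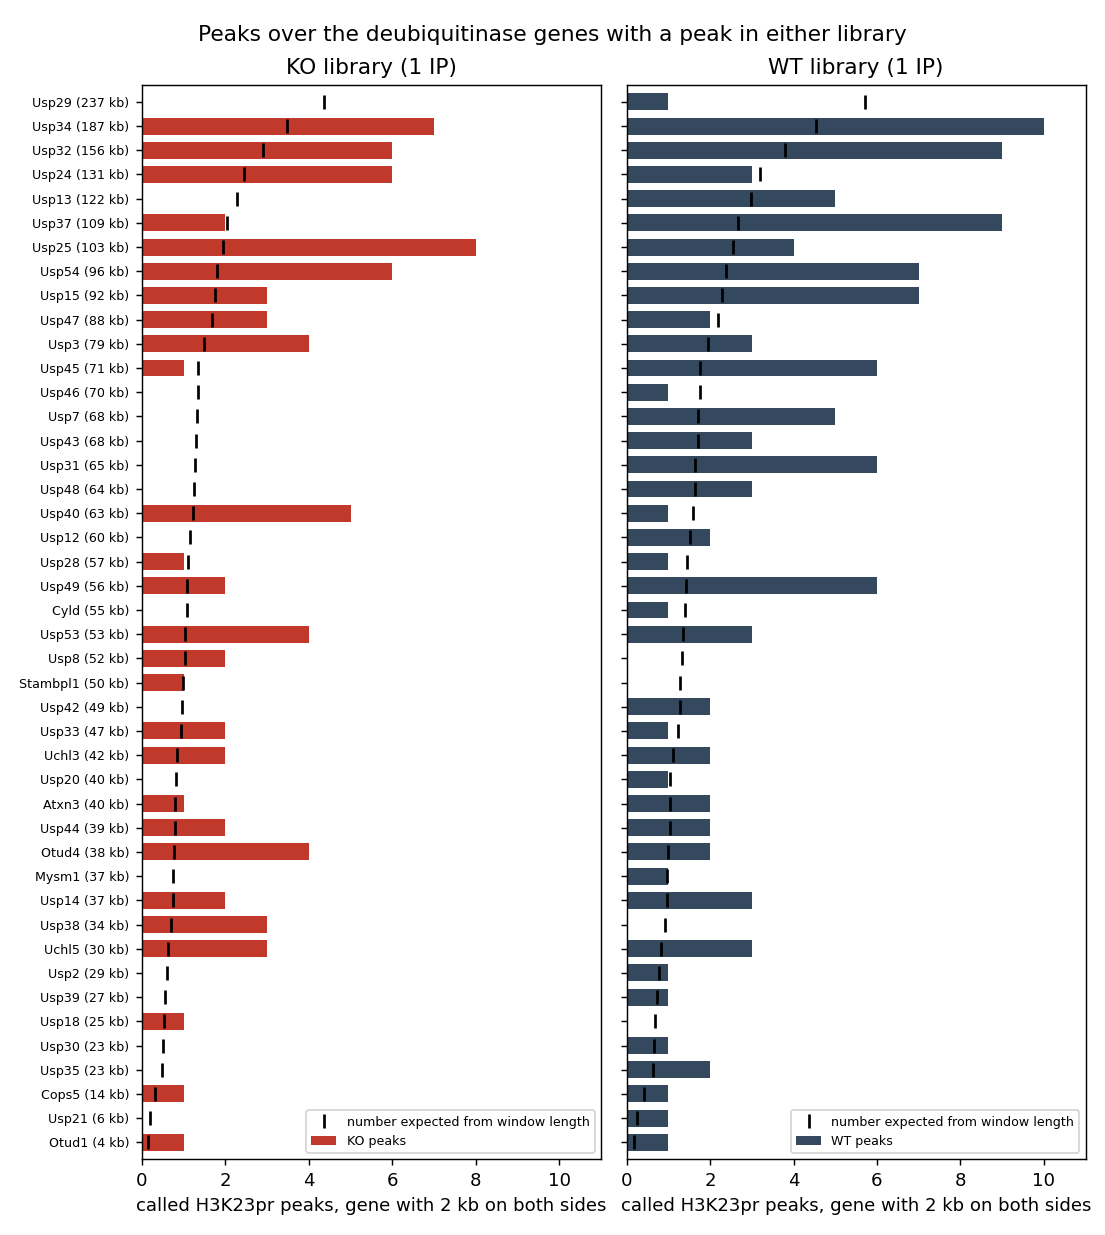
Called H3K23pr peaks (horizontal axis, number per gene with 2 kb on both sides) over the 44 members with a peak in either library, KO left and WT right, ordered by gene length from 237 kb at the top to 3.55 kb at the bottom. Bars are counts in 1 library each and black ticks the number expected from window length; Usp25 stands out in KO with 8 peaks and Usp34 in WT with 10, while Usp29 lies below its tick in both.

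Peaks were spread unevenly over the members. The 10 members with the most peaks held 53 of 83 KO peaks (63.9%) and 70 of 125 WT peaks (56.0%). Among the 20 longest members, of 57.2 to 237 kb, 12 had KO peaks, where 71.3% of the other 3425 genes of that length range did, and all 20 had WT peaks, where 88.1% did. They had means of 2.60 KO and 4.40 WT peaks per gene, against 2.24 KO and 2.93 WT in those other genes. Among the 20 of middle length, 12 had KO peaks and 13 WT peaks, against 43.1% in KO and 63.5% in WT of other genes, and means were 1.40 KO and 1.45 WT, against 0.795 KO and 1.10 WT in other genes. Among the 20 shortest members, 3 had a KO peak and 7 a WT peak, against 16.3% in KO and 28.5% in WT of other genes, and means were 0.150 KO and 0.400 WT, against 0.222 KO and 0.368 WT.

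Across the 60 members, peak number went with gene length, with a Spearman correlation of 0.47 in KO and 0.71 in WT and a Pearson correlation of 0.52 in KO and 0.65 in WT. These are descriptions across genes of the same libraries, and genes are not replicates. Over all autosomal protein-coding genes the Spearman value was 0.58 in KO and 0.65 in WT. Usp29, the longest member at 237 kb, lay far off the trend. It is an imprinted gene expressed from the paternal allele, and it had 0 KO peaks and 1 WT peak of 4 fragments where 4.36 KO and 5.72 WT peaks would be expected. Of 216 genes of like length, 90.3% had at least 1 KO peak and 99.5% at least 1 WT peak, so a KO count of 0 was not rare at this length. Without Usp29 the Spearman value was 0.52 in KO and 0.73 in WT, and the Pearson value was 0.67 in KO and 0.81 in WT.

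**Figure D2:**
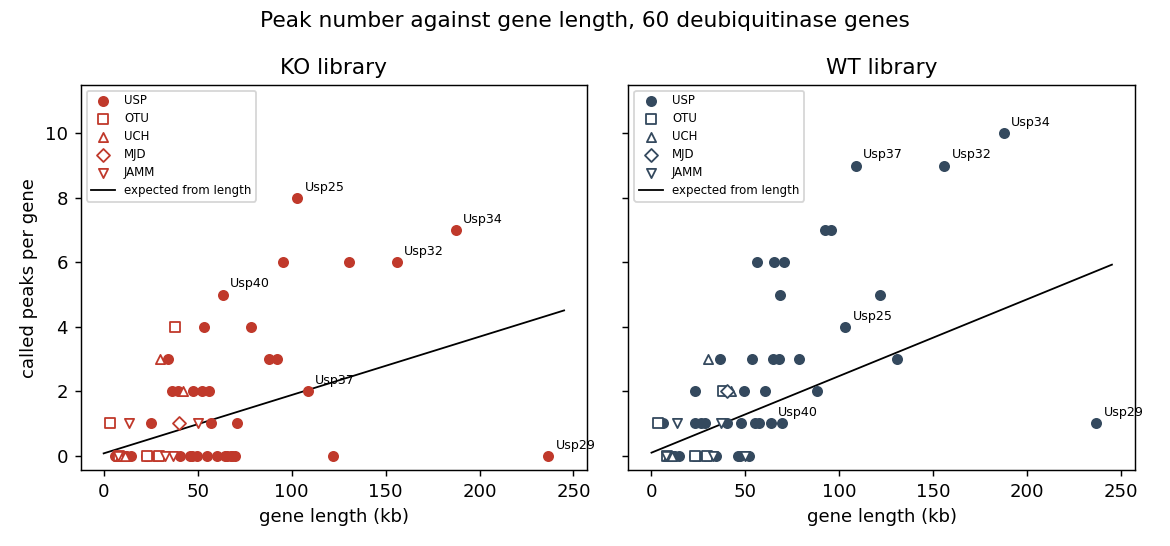
Called peaks per gene (vertical axis) against gene length in kb (horizontal axis) for the 60 members, KO left and WT right, with marker shapes for the 5 catalytic classes. The line is the number expected at the peak density of all autosomal protein-coding genes; Usp29 lies far below it in both libraries, and Usp37 lies on it in KO with 2 peaks and far above it in WT with 9.

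In KO, the largest excess over the expected number was that of Usp25 (chromosome 16, 77013684 to 77116783). It had 8 KO peaks against 1.94 expected and 4 WT peaks against 2.54. Its KO peaks held 7, 5, 5, 6, 7, 5, 4 and 4 fragments in order along the gene, and its WT peaks 4, 6, 6 and 4. Among 568 genes within 10% of its length, 3.52% had as many KO peaks or more and 31.0% as many WT peaks or more. Usp25 was picked from all members for its KO excess, and its KO share comes from the same count. Picking the largest excess among many genes gives small shares by itself. How small was not computed, so such a share, here or below, does not set a picked gene apart. No KO peak of Usp25 overlapped a WT peak, the nearest pair being 425 bp apart.

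Usp40 and Usp24 also had more peaks in KO than in WT. Usp40 (chromosome 1, 87945119 to 88008582) had 5 KO peaks of 5, 4, 6, 4 and 4 fragments and 1 WT peak of 5 fragments, against 1.22 KO and 1.60 WT expected. Usp24 (chromosome 4, 106315980 to 106446613) had 6 KO peaks of 4 to 7 fragments and 3 WT peaks of 5 to 7 fragments, against 2.44 KO and 3.20 WT expected. The WT count of Usp24 was thus near its length and the KO count above it. Of genes of like length, 14.5% had as many KO peaks as Usp24 or more.

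Otud4 and Usp53 were shorter members with 4 KO peaks each. Otud4 (chromosome 8, 79639676 to 79677755) had KO peaks of 5, 4, 4 and 5 fragments and WT peaks of 6 and 5, against 0.762 KO and 0.999 WT expected. Its WT summits lay 0.588 and 2.27 kb into the gene, also in the window of Gm51579, and its KO summits lay at 15.4, 29.6, 35.8 and 39.8 kb. Usp53, whose human counterpart is mutated in a familial cholestasis (chromosome 3, 122931486 to 122984900), had KO peaks of 4, 5, 4 and 6 fragments and WT peaks of 4, 6 and 6, against 1.04 KO and 1.36 WT expected. Counted from its lower-coordinate end, its 4 KO summits lay no farther than 14.7 kb and its WT summits at 23.2, 35.6 and 39.8 kb.

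In WT, Usp37 led. Usp37, a deubiquitinase of the cell cycle that stabilizes cyclin A (chromosome 1, 74435510 to 74544286), had 2 KO peaks of 5 fragments each and 9 WT peaks of 5, 6, 11, 4, 6, 6, 5, 7 and 4 fragments. The expected numbers were 2.04 in KO and 2.68 in WT. Of 533 genes of like length, 51.2% had as many KO peaks or more and 0.563% as many WT peaks or more. Usp37 was picked for its WT excess, so the limit given for Usp25 holds for this WT share. The peak of 11 fragments, from 74458285 to 74458499, was the highest of any member, with a fold of 7.09 over local background, and ranked 49 of 54397 WT peaks by caller p. One KO and 1 WT peak of Usp37 lay 103 bp apart.

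Usp31, Usp45 and Usp49 each had 6 WT peaks. Usp31 (chromosome 7, 121642021 to 121707461) had 0 KO peaks against 1.26 expected, and WT peaks of 5, 4, 5, 4, 6 and 6 fragments against 1.65. Usp45, a deubiquitinase of a DNA repair nuclease (chromosome 4, 21767161 to 21837872), had 1 KO peak of 5 fragments and WT peaks of 5, 5, 5, 6, 6 and 4. Usp49, known for removing ubiquitin from a histone (chromosome 17, 47630690 to 47686739), had KO peaks of 4 and 5 fragments and WT peaks of 4, 4, 6, 5, 5 and 6, all of them also in the window of Gm20517, an overlapping protein-coding gene. Of genes of like length, 2.19% had as many WT peaks as Usp31 or more, 3.38% as many as Usp45 and 0.866% as many as Usp49. Usp31, Usp45 and Usp49 were also picked for their WT excess, and their shares carry the same limit.

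Usp34, Usp32, Usp54 and Usp15 had many peaks in at least 1 library, and WT had more in each. Usp34, which acts on axin in Wnt signalling (chromosome 11, 23303185 to 23490560), had 7 KO peaks of 4 to 5 fragments and 10 WT peaks of 4 to 6, against 3.47 KO and 4.55 WT expected. Usp54 (chromosome 14, 20548912 to 20644491) had 6 KO peaks and 7 WT peaks, against 1.80 KO and 2.37 WT expected. Usp15, which acts in TGF-beta signalling (chromosome 10, 123105006 to 123197281), had KO peaks of 6, 7 and 4 fragments and WT peaks of 4, 5, 5, 6, 6, 4 and 5, against 1.74 KO and 2.29 WT expected. The libraries overlapped in height in all of these genes. As many KO peaks or more were found in 15.8% of genes of like length for Usp34 and 16.7% for Usp32. For Usp54 that KO share was 8.31% and for Usp15 30.8%. In WT the shares were 5.88% for Usp34, 7.20% for Usp32, 3.65% for Usp54 and 3.10% for Usp15. All of these genes were picked for their WT excess, so the WT shares carry the limit given for Usp25.

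Usp32 (chromosome 11, 84984437 to 85140281) was the only member where a KO peak overlapped a WT peak, and it did so at 2 sites. It had 6 KO peaks of 6, 5, 8, 6, 4 and 4 fragments and 9 WT peaks of 4, 5, 5, 4, 5, 6, 6, 6 and 6. The first shared site, near the lower-coordinate end, ran from 84990020 to 84990097 in KO with 6 fragments and from 84989959 to 84990158 in WT with 5. The second ran from 85121274 to 85121399 in KO and from 85121188 to 85121284 in WT, with 6 fragments in both and an overlap of 11 bp. At least 1 shared site was found in 0.968% of autosomal protein-coding genes and at least 2 in 0.0677%. Usp32, at 156 kb, is far longer than most of these genes, and no such share was computed for genes of its length. When an overlap of 50% of the shorter peak was required, 1 shared site was left. Over the members, 2.41% of KO peaks (0.293 to 8.43) and 1.60% of WT peaks (0.194 to 5.66) overlapped a peak of the other library, against 1.09% and 0.836% over all genes.

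**Figure D3:**
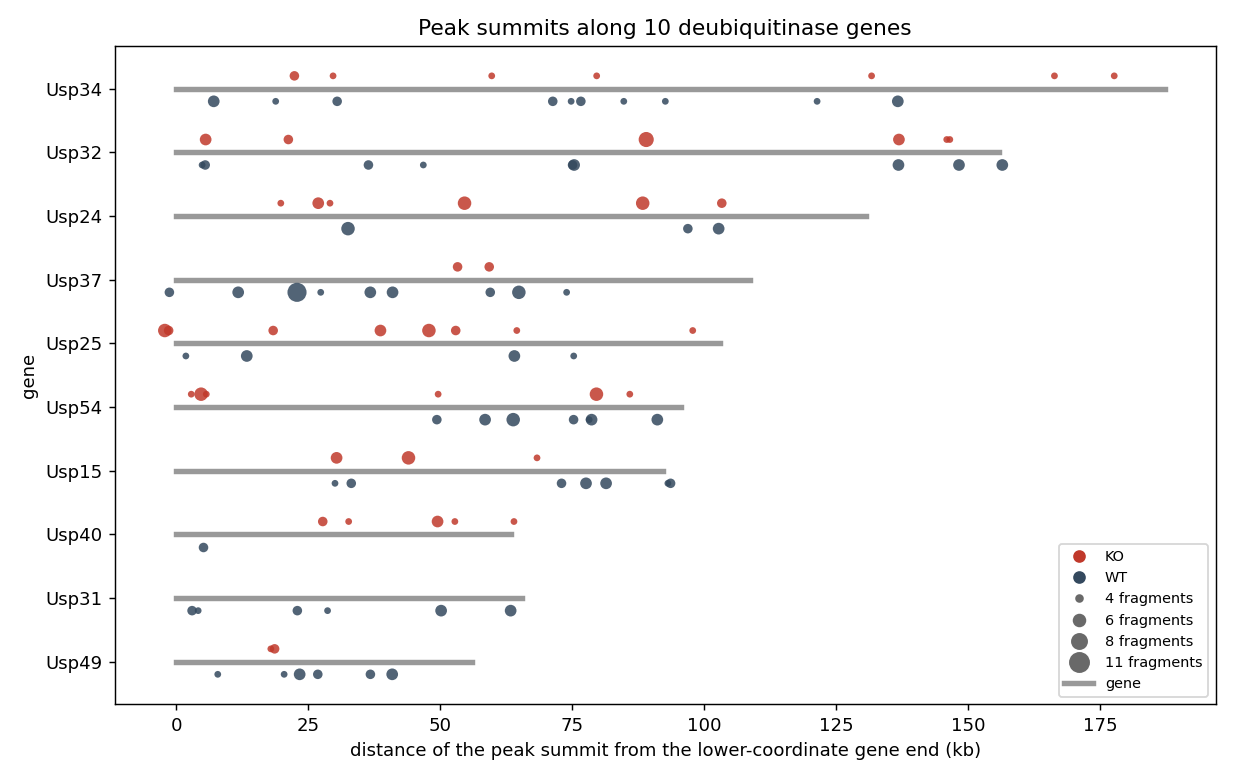
Peak summits along 10 members, as distance in kb from the lower-coordinate gene end (horizontal axis), with KO summits above and WT summits below each gene bar and point size for IP fragments. KO and WT peaks overlap at 2 places, both in Usp32, and Usp31 has 6 WT summits and 0 KO summits.

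Some long members had few peaks in KO or in both libraries. Usp13, a deubiquitinase of autophagy regulators, had 0 KO peaks against 2.28 expected and 5 WT peaks of 4 to 6 fragments against 2.99. Usp7, known for acting on p53 and its ubiquitin ligase, had 0 KO peaks against 1.31 and 5 WT peaks of 4 to 6 fragments against 1.72. Usp46 had 0 KO peaks against 1.34 and 1 WT peak against 1.75, but that peak held 8 fragments at a fold of 5.22. Usp28, a relative of Usp25 known for stabilizing MYC, was nearer to what its length gives. It had 1 KO peak of 4 fragments against 1.11 and 1 WT peak of 6 fragments against 1.45, and genes of like length had a median of 1 in both libraries. At expected numbers this small, a count of 0 or 1 shows little about a single gene.

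The highest KO peak of any member was in Usp32, from 85073457 to 85073527, with 8 fragments and a fold of 5.74, and it ranked 364 of 41907 KO peaks by caller p. KO peaks of 7 fragments and a fold of 5.10 followed, among them those of Usp15, Usp24, Usp25 and Usp54. In WT, the peak of Usp37 was followed by peaks of 9 fragments in Usp3 and of 8 in Usp48, Usp46 and Usp14. Usp3, known for removing ubiquitin from histones, had KO peaks of 4, 6, 5 and 6 fragments and WT peaks of 6, 9 and 5. Usp48 had 0 KO peaks and WT peaks of 5, 4 and 8 fragments.

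Between the classes, counts outside the USP class were small. The 45 USP members, with Cyld among them, held 70 KO peaks (54.6 to 88.4) against 54.3 expected and 113 WT peaks (93.1 to 136) against 71.2. The 5 OTU members held 5 KO peaks against 2.21 and 3 WT peaks against 2.90. They were carried by Otud1 and Otud4, and Otub1, Otub2 and Otud3 had 0 in both libraries. Otud1, the shortest member at 3.55 kb, had 1 KO peak of 5 fragments and 1 WT peak of 4, both beyond its upper-coordinate end and 254 bp apart.

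The 4 UCH members held 5 KO peaks (1.62 to 11.7) against 1.96 expected and 5 WT peaks against 2.57. Uchl5, which works at the proteasome and in a chromatin remodelling complex (chromosome 1, 143777234 to 143807466), had KO peaks of 5, 4 and 4 fragments and WT peaks of 6, 6 and 5. Of 1103 genes of like length, 5.44% had as many KO peaks or more and 5.08% as many WT peaks or more. Uchl3, which also acts on the ubiquitin relative NEDD8, had KO peaks of 7 and 6 fragments and WT peaks of 4 and 5. Uchl1, best known from neurons, and Bap1, the histone deubiquitinase of a Polycomb-related complex, had 0 in both. Usp14, the other enzyme that binds the proteasome, had 2 KO peaks of 6 fragments and 3 WT peaks of 4, 8 and 5.

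The JAMM members, which share RPN11's kind of active site, held 2 KO and 2 WT peaks, against 2.91 KO and 3.82 WT expected. Cops5, the COP9 signalosome subunit that removes NEDD8 from cullins, had a KO peak of 6 fragments and a WT peak of 4, which lay apart. Stambpl1 had 1 KO peak of 7 fragments and 0 WT peaks. Mysm1, a histone deubiquitinase, had 0 KO peaks and 1 WT peak of 4 fragments. Stambp, an endosomal deubiquitinase, and Mpnd had 0 in both. Atxn3, whose human counterpart carries the repeat of Machado-Joseph disease, had 1 KO peak of 4 fragments and WT peaks of 5 and 7. Cyld, which trims chains in NF-kappaB signalling, had 0 KO peaks and 1 WT peak of 6 fragments.

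Set against each other, the libraries gave a KO to WT ratio of 0.664 for peaks over members (95% interval 0.497 to 0.883), and of 0.763 over all autosomal protein-coding genes (0.748 to 0.777). The lower KO number was therefore not particular to the members. The KO IP was the deeper library and had the shorter fragments, and the part of either in the lower number was not tested. Peaks were found in both libraries for 23 members (38.3%, against 22.4% of all genes), in KO only for 4 (6.67%, against 8.06%), in WT only for 17 (28.3%, against 20.8%) and in neither for 16 (26.7%, against 48.8%). KO outnumbered WT in 12 members (20.0%, against 14.6%) and WT outnumbered KO in 26 (43.3%, against 30.6%). These shares move with gene length, which was greater in the members.

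The 4 members with peaks in KO only were Stambpl1, Usp8, Usp18 and Usp38. Usp8, a deubiquitinase of endosomal receptors, had 2 KO peaks of 4 fragments. Usp18, which removes the ubiquitin-like interferon product ISG15, had 1 of 5 fragments. Usp38 had 3 of 5, 5 and 6 fragments, where 6.11% of genes of like length had as many or more. In these 4 genes 0.689 to 1.33 WT peaks were expected per gene, so that a WT count of 0 in any of them shows little. The 16 members without a peak were 7.59 to 47.2 kb long, with a median of 22.7 kb, against 57.2 kb for the members with peaks in both libraries.

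The 17 members with peaks in WT only included Usp31, Usp13, Usp7, Usp48, Usp46, Usp29, Mysm1 and Cyld, given above. Of the others, Usp43 had 3 WT peaks of 5, 4 and 4 fragments. Usp12, which shares the cofactor Wdr48 with Usp46, had 2 of 4 and 6 fragments, Usp35 had 2 of 6 and 5, and Usp42 had 2 of 6 and 4. Usp2, an enzyme with circadian expression in liver, had 1 WT peak of 7 fragments. Usp21, a histone deubiquitinase gene of 6.01 kb, had 1 of 6 fragments. Usp20, Usp30 and Usp39 had 1 WT peak each, of 4, 4 and 5 fragments. Usp30 is the mitochondrial enzyme that restrains mitophagy, and Usp39 is a splicing factor without protease activity. In these 9 genes 0.181 to 1.30 KO peaks were expected per gene, so that a KO count of 0 in any of them shows little.

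Of the members with peaks in both libraries, 3 have not been described. Usp47 had 3 KO peaks of 5 fragments each and WT peaks of 7 and 4 fragments, against 1.67 KO and 2.18 WT expected. Usp33 had KO peaks of 4 and 6 fragments and 1 WT peak of 5. Usp44, a deubiquitinase of the mitotic checkpoint, had KO peaks of 4 and 5 fragments and WT peaks of 4 and 4. The members without a peak were Usp1, Usp4, Usp5, Usp10, Usp16, Usp19, Usp22, Usp36, Usp50, Otub1, Otub2, Otud3, Uchl1, Bap1, Stambp and Mpnd. Among them are Usp5, which recycles free ubiquitin chains, Usp22, the histone deubiquitinase of the SAGA complex, and Usp16, another histone deubiquitinase. For Usp16, Usp22 and Bap1, 0.228 to 0.589 KO and 0.299 to 0.773 WT peaks were expected per gene, so that a count of 0 shows little.

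For all members but 1, the counts were too small to tell the KO to WT ratio of a single gene from 1. Over all autosomal protein-coding genes that ratio was 0.763, and no single gene was compared with it. Leaving out 1 therefore does not set a gene apart from the rest. The exact interval of the KO to WT ratio left out 1 for Usp31, with 0 KO and 6 WT peaks, and for no other member. Over all autosomal protein-coding genes such an interval lay below 1 in 0.460% and above 1 in 0.165%. For Usp37, with 2 KO and 9 WT peaks, and for Usp40, with 5 KO and 1 WT, it held 1. The call for Usp31 was lost under stricter thresholds, with 0 KO and 4 WT peaks of at least 5 fragments and 0 in both among peaks with a caller q up to 0.05. Under either threshold the interval held 1 for every member with a peak.

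Which library had more member peaks depended on how peaks were selected. Among peaks with a caller q up to 0.05, 14 members had a KO peak (23.3%, against 15.0% of all genes) and 8 a WT peak (13.3%, against 10.6%). The members then held 25 KO peaks and 8 WT peaks, a ratio of 3.12 (1.37 to 8.02), against 2.05 over all genes. At the genome-wide background a KO peak of 6 fragments had a −log10 q of 1.38 and a WT peak of 6 fragments 1.07, on either side of the threshold of 1.30. Members had 15 KO and 39 WT peaks of exactly 6 fragments. With the strongest 20000 peaks of each list by caller p, they held 37 KO and 54 WT peaks, a ratio of 0.685 (0.438 to 1.06), against 0.974 over all genes.

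**Figure D4:**
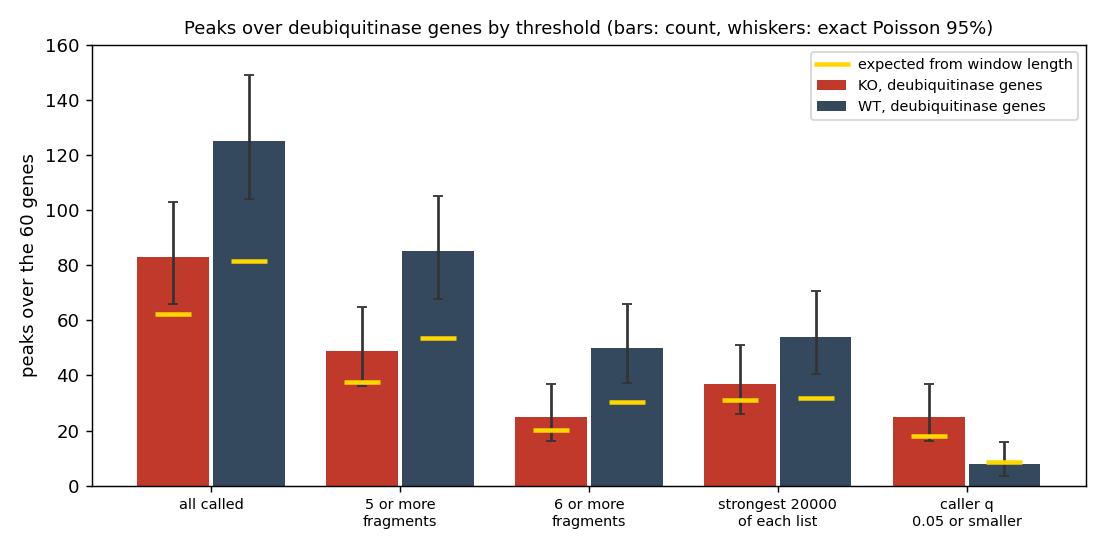
Number of peaks over the 60 members (vertical axis) under 5 thresholds, KO left and WT right in each pair. Bars are counts, whiskers exact Poisson 95% intervals for counting error, and yellow lines the number expected from window length; WT exceeds KO in the first 4 pairs, and KO exceeds WT, 25 against 8, among peaks with a caller q up to 0.05.

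Most member peaks held 4 to 6 fragments, as in other genes. In KO, 41.0% of member peaks had 4 fragments, 28.9% had 5, 18.1% had 6 and 10.8% had 7, against 39.5%, 28.1%, 21.5% and 6.81% over all autosomal protein-coding genes. In WT, 32.0% had 4 fragments, 28.0% had 5, 31.2% had 6 and 4.80% had 7, against 34.4%, 28.4%, 23.6% and 8.88%. Peaks of 8 or more fragments were 1 of 83 KO and 5 of 125 WT member peaks, against 4.07% in KO and 4.80% in WT over all genes. A caller q up to 0.05 was found for 30.1% of KO member peaks (20.5 to 41.2) and 6.40% of WT ones (2.80 to 12.2), against 29.0% in KO and 10.8% in WT over all genes. The median fold was 3.83 in KO and 3.55 in WT, the same values as over all genes. Median width was 90.0 bp in KO and 127 bp in WT, against 92.0 bp and 130 bp over all genes. The local background was at the genome-wide level, within 5%, for 74 of 83 KO peaks and 104 of 125 WT peaks, and did not exceed 0.890 fragments in KO and 1.45 in WT. No member peak had more than 11 fragments.

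**Figure D5:**
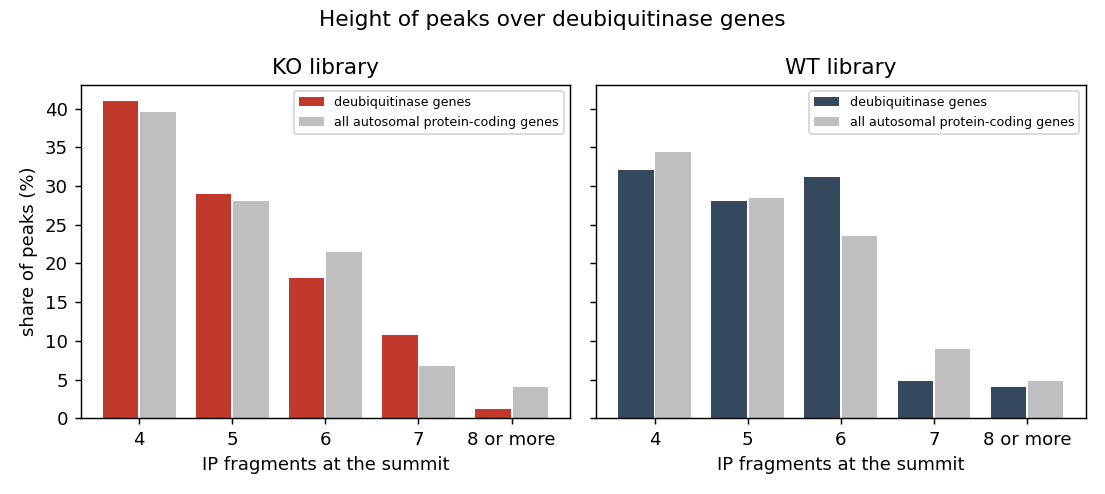
Share of peaks in percent (vertical axis) by IP fragments at the summit (horizontal axis) for the members in colour and all autosomal protein-coding genes in grey, KO left and WT right. In both libraries most member peaks hold 4 to 6 fragments, and 1 KO peak and 5 WT peaks hold 8 or more.

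Most member peaks lay away from gene ends, as does most of the window length. A peak within 2 kb of either gene end was found in 7 members in KO (11.7%, against 8.05% of all genes) and in 11 in WT (18.3%, against 14.7%). Of the member peaks, 9.64% in KO (4.25 to 18.1) and 9.60% in WT (5.06 to 16.2) lay there, where 13.9% of the window length lies. Both intervals held that share of length, so the positions were not set apart from it. Over all genes the shares were 9.18% in KO and 12.1% in WT. Otud1, Otud4 and Usp25 had such a peak in both libraries, 3 of 60 members, against 1.52% of all genes. Those of Otud4 lay at opposite ends of the gene. Some end peaks also lay within 2 kb of another gene, as for Usp37 with Vil1 and Usp35 with Gab2, both in WT. In all, 2 KO and 12 WT member peaks lay in the window of another protein-coding gene.

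Other genes of deubiquitinase families and their relatives were counted in the same way. Of 25 such genes outside the members, 11 had a KO peak (44.0%, against 30.5% of all genes) and 14 a WT peak (56.0%, against 43.1%), with 37 KO peaks (26.1 to 51.0) against 23.8 expected and 39 WT peaks (27.7 to 53.3) against 31.2. Psmd14, the targeted gene, gave 10 of these KO peaks against 1.68 expected and 7 of the WT peaks. Zranb1 had 5 KO peaks and 1 WT peak, and Otud7a, at 321 kb, had 2 KO and 5 WT peaks against 5.90 KO and 7.73 WT expected. The list includes Usp6nl, which is not a protease, and Senp8, which acts on NEDD8.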

How the data were processed

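Peak lists from H3K23pr ChIP-seq of 1 KO and 1 WT liver IP were used, each called against its own input. The submitters' processing notes name cutadapt 1.9.3, Bowtie2 2.2.4 and the build mm10. The caller was MACS2 2.1.1.20160309, per the file headers, run on each library in paired-end mode with a p cutoff of 0.001 and no more than 2 identically placed fragments. The deposited pileup is a signal, counting IP fragments at the summit in whole numbers. The deposited fold is a ratio of pileup to local background with 1 added to both. The deposited p-value and q-value are −log10 values per peak. The headers say that q would not be calculated, but its column held values. All are the authors' own values, used to describe, rank and filter peaks. Positions and widths, also deposited, are in bp.

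Genes came from the RefSeq table of GRCm38.p6, where 64 protein-coding genes met the symbol rule and 60 were autosomal. That table gives no strand, so starts and strands came from the RefSeq promoter table. Expected peak numbers are the peak density over the merged windows of all autosomal protein-coding genes times a window's length. The background of a peak was recovered from its pileup and fold. Intervals are exact, at 95%, but the limit given for starts without a peak is an approximation. No p-value was computed, since each genotype had 1 library. Code was run with Python 3.11.15 and scipy 1.17.1 and tested on simulated data.

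Members and lists were chosen with earlier results of these data known. Genes named with values were the 8 members with the largest observed minus expected number in each genotype, the 4 with the fewest for their length among the 20 longest, the 4 with the strongest peak, those with overlapping KO and WT peaks or end peaks in both, the JAMM and UCH members, Cyld and Atxn3. Others were named after their values were seen. Alternatives were other windows, thresholds, overlaps and membership.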

Additional observations from a re-analysis of the deposited data

How the results depend on the processing

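The KO to WT ratio of peaks over members and the ratio of members to all genes kept their direction in every alternative run, except among peaks with a caller q up to 0.05. In that case the KO to WT ratio was 3.12 and the WT ratio of members to all genes 0.910, with 14 KO and 8 WT members marked, 25 KO and 8 WT peaks, 2 KO and 0 WT members with an end peak and 0 shared sites. Apart from that setting, the KO to WT ratio was 0.500 to 0.714, the KO density ratio 1.19 to 1.44 and the WT density ratio 1.35 to 1.70. The interval of the KO density ratio held 1 under every stricter threshold, however. It was 0.963 to 1.72 with at least 5 fragments and 0.803 to 1.84 with at least 6. With the strongest 20000 peaks it was 0.840 to 1.65, and at q 0.05 it was 0.896 to 2.05. With at least 5 fragments members held 49 KO peaks. With at least 6 fragments they held 25 KO and 50 WT peaks, with 14 members marked in KO, 2 KO and 5 WT members with an end peak and 1 shared site. With the strongest 20000 peaks there were 37 KO and 54 WT peaks, 26 members marked in WT, and 2 KO and 4 WT members with an end peak. Within 1 kb of a gene end there were 1 KO and 6 WT members. Shared sites numbered 5 when KO and WT peaks within 200 bp were counted and 1 with an overlap of 50% of the shorter peak. Fewer peaks pass a stricter threshold by construction. The cause of the turn at q 0.05 was not tested. Of 64 single-gene counts, 18 moved by over 1.5 times with at least 5 fragments, 42 at q 0.05 and 2 without the flanks. Adding symbols with letters after the digits, leaving out Usp29 or placing peaks by summit moved no count beyond 1.5 times. No paired analysis was possible because each genotype has 1 library. At 4 to 6 fragments a peak, counting error limits every single gene.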

Other observations

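Partners of deubiquitinases, such as WD-repeat cofactors, the COP9 signalosome and the BRISC and SAGA modules, were near the numbers their length gives. Of 38 such genes 14 had a KO peak (36.8%, against 30.5% of all autosomal protein-coding genes) and 18 a WT peak (47.4%, against 43.1%). They held 39 KO peaks (27.7 to 53.3) against 34.1 expected and 56 WT peaks (42.3 to 72.7) against 44.7. Babam2, at 387 kb, gave 14 of the KO peaks against 7.08 expected and 19 of the WT peaks against 9.29. Cops2, a signalosome subunit, had 4 KO and 0 WT peaks, and Atxn7, a SAGA subunit, had 5 KO and 1 WT. Of 9 ubiquitin precursor and E1 enzyme genes, 2 had a KO peak and 2 a WT peak (22.2% in both, against 30.5% of all genes in KO and 43.1% in WT), with 3 KO peaks against 3.32 expected and 4 WT peaks against 4.36. Uba6 held 2 of their 3 KO peaks and 3 of their 4 WT peaks.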
